A study of Rattus norvegicus with 862 samples.

Results

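Hydrocortisone is the natural human glucocorticoid given as a drug, and the data here are the hearts of 9 rats dosed with it for 1, 3 or 5 d (3 rats at each duration, 1 array per rat) out of the 862 heart arrays, from 840 rats, of the DrugMatrix compound library. All were male Sprague Dawley (CD-IGS) rats bought at 6 to 8 weeks of age and acclimated for 1 week. The 9 treated rats were those labelled hydrocortisone at 56 mg/kg in corn oil by the subcutaneous route, and they were chosen by that label alone. Their controls were the 9 rats (3 at each duration) given corn oil without compound by the same route, whose RNA belonged to the same extraction campaign; 6 of these came from the same in-life study as the treated rats and 3, 1 at each duration, from another. The 1 d hearts were afternoon harvests and the 3 d and 5 d hearts early-morning harvests, for treated and control rats alike. The question was whether the change against the vehicle control differed between 5 d, 3 d and 1 d of dosing.

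Glucocorticoids bind a receptor inside the cell that then acts as a transcription factor, switching on genes such as Fkbp5 and restraining inflammatory transcription. They are known as suppressors of immunity, of connective tissue growth and of cell division. Interferon response genes are a separate programme: they encode antiviral proteins, carry a short shared sequence element near their starts, and are induced when interferons reach their receptors.

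The upstream sequences of 5 genes that the results turn on are shown first, since the known interferon-response element lies in this stretch of many such genes. They run 5′ to 3′ on the strand of the gene, are the 150 bases just before the RefSeq start on the rat build GRCr8, and carry in capitals every copy of the interferon-response core GAAANNGAAA found on either strand (on the opposite strand it reads TTTCNNTTTC). Ifit3 lies at chr1:241527176-241527325 on the plus strand, Ddx60 at chr16:33208840-33208989 on the minus strand, Oas1a at chr12:41330316-41330465 on the plus strand, Gbp2 at chr2:234005577-234005726 on the plus strand and Mx1 at chr11:50294607-50294756 on the minus strand.
Ifit3: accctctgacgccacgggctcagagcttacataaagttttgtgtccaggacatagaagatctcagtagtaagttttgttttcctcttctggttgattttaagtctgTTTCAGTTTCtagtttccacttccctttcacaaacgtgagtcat
Ddx60: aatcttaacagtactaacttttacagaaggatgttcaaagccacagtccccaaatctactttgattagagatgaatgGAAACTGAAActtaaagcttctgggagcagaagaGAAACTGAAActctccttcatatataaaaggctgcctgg
Oas1a: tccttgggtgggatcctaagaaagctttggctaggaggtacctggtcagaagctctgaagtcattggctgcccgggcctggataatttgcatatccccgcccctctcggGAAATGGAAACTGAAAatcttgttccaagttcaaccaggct
Gbp2: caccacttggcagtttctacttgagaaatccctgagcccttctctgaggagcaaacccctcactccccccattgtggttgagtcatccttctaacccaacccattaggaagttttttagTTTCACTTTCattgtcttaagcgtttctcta
Mx1: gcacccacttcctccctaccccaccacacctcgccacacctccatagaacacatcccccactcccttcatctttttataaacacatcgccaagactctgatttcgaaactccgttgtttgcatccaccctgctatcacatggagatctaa

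The copies of the element begin 44 bases before the start in Ifit3, 73 and 39 bases before it in Ddx60, 41 and 35 bases before it in Oas1a, where they overlap, and 31 bases before it in Gbp2. No copy lies in the window searched for Mx1. In the 250 bases before the start, 902 of 27457 promoters of the RefSeq table (3.29%) hold the element. Among the measured genes, from which the sets below were drawn, 311 of 11733 with a promoter in the table (2.65%) hold it. The element is held by 22 of the 36 interferon response genes with a promoter in the table (61.11%), by 30 of the 76 genes with a promoter in the table (39.47%) among the genes whose change differed between durations, by 37 of 122 (30.33%) of the genes higher at 1 d and by 1 of 88 (1.14%) of the genes lower at 1 d. A match of these letters is a description and not a binding site.

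Values are log2 levels, so that 1 unit is a doubling, and a change is the treated mean minus the control mean. The 18 arrays had median levels between 5.99 and 6.08. The tissue was heart by its defining genes: Myh6, the main myosin heavy chain of the rat heart, lay between 14.15 and 14.38 and Tnnt2, cardiac troponin T, between 14.03 and 14.21 on all 18 arrays. Of 39 heart muscle genes, 0 passed the test at any duration, where at most 1.15% of all genes passed in either direction. At such shares this does not show that the 39 genes were unchanged. The amount of atrial tissue varied. Myl4, an atrial myosin light chain, exceeded 9 on 6 arrays, namely control 1 d replicate 2, control 5 d replicates 2 and 3, hydrocortisone 3 d replicates 1 and 2, and hydrocortisone 5 d replicate 2. The atrial list moved with the groups at 3 d, with a median change of 1.91 over 7 genes of which 0 passed; the median level of its genes ran from 7.57 to 9.14 in the 3 d controls and from 9.62 to 12.57 in the treated rats. The main counts below are also given without these 6 arrays, which leaves 1 treated rat at 3 d and 1 control at 5 d; the part of atrial tissue in the results was not tested further. In whole hearts, fewer cells of a type and less RNA per cell cannot be told apart.

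The clearest result was a rise of interferon response genes after 1 d that was not seen after 3 d or 5 d. A test of the treatment-by-duration interaction called 90 of 14217 genes (0.633%; limma, Benjamini-Hochberg adjusted p of at most 0.01 and at least 1.5-fold between the changes at some pair of durations). Of these 90 genes, 84 were higher than control at 1 d, 88 had a lower change at 5 d than at 1 d, and 30 were members of the interferon response list. Their median change was 1.95 at 1 d, -0.34 at 3 d and -0.33 at 5 d. Without the 6 arrays high in atrial genes the interaction called 56 genes, 53 of them among the 90.

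Mx1, a GTPase that blocks influenza and related viruses, had the largest change among the genes higher at 1 d. Its level was 10.46, 10.32 and 10.62 in the 3 rats dosed for 1 d against 4.70, 4.61 and 4.95 in their controls. After 3 d the treated rats read 4.31, 4.78 and 4.58 and the controls 4.91, 4.71 and 4.52, and after 5 d the treated rats read 4.51, 4.32 and 4.70 and the controls 4.99, 5.69 and 4.84. All 3 treated rats at 1 d stood far above every other animal, the groups overlapped at 3 d, and at 5 d every treated rat lay below its controls. The change was 5.71 ± 0.19 (SE, n = 3 against 3; limma adjusted p = 6.4e-12) at 1 d, a 52.5-fold rise, -0.16 at 3 d and -0.66 at 5 d, and the change at 5 d minus that at 1 d was -6.38 ± 0.27 (adjusted p = 3.8e-10).

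Isg15, a ubiquitin-like protein attached to other proteins during infection, was at 11.45, 11.53 and 11.38 in the rats dosed for 1 d and at 7.93, 7.79 and 8.16 in their controls. At 5 d it was at 7.37, 6.96 and 7.12 in treated rats and at 8.18, 8.57 and 7.82 in controls. The gene therefore went from 11.2-fold above control at 1 d to below control at 5 d, where the change of -1.04 ± 0.18 also passed the test (adjusted p = 0.0066, n = 3 against 3, limma); that 5 d call was kept in 3 of 9 alternative settings. Rtp4, a chaperone for membrane receptors that also limits viruses, did the same, with changes of 2.58 at 1 d and -1.31 at 5 d, both past the test; its 5 d call was kept in 6 of 9 settings.

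Sensors of foreign RNA rose beside the effectors. Rig1 (synonym Ddx58), the cytoplasmic RNA helicase that starts the interferon response, changed by 2.84 ± 0.23 at 1 d, and Ddx60, a helicase that aids it, by 4.25 ± 0.30. Ifih1, a sensor of long viral RNA, changed by 2.44, and Eif2ak2, the kinase that halts translation when it binds viral RNA, by 2.30. Irf7, the transcription factor that amplifies interferon production, read 11.97, 11.85 and 11.40 at 1 d against 8.36, 7.95 and 8.52 in controls, a change of 3.46 ± 0.35 (adjusted p = 5.6e-06, n = 3 against 3, limma). At 3 d 1 of the 3 treated rats, at 9.60, was still above its controls for Irf7 while the other two, at 8.01 and 8.23, were not.

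The effectors named by rank included Ifit3 (5.08 at 1 d, -0.50 at 5 d), which binds viral RNA complexes, Mx2 (4.18 and -0.81), a relative of Mx1, and Ifi44l (3.63 and -0.62). Usp18, which removes Isg15 and damps interferon signalling, changed by 3.85 at 1 d and -0.54 at 5 d, and Herc6, which attaches Isg15 in rodents, by 3.57 and -0.51. Gbp4 and Gbp2, guanylate-binding proteins of cell-autonomous defence, changed by 3.97 and 2.19 at 1 d. Slfn4, a Schlafen family gene, changed by 3.80 and Ifgga2l1 by 3.09. Cxcl10, a chemokine that draws T cells, was at 7.63, 8.35 and 8.22 at 1 d against 5.53, 4.93 and 5.08 in controls, a change of 2.89 ± 0.18.

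**Figure D1:**
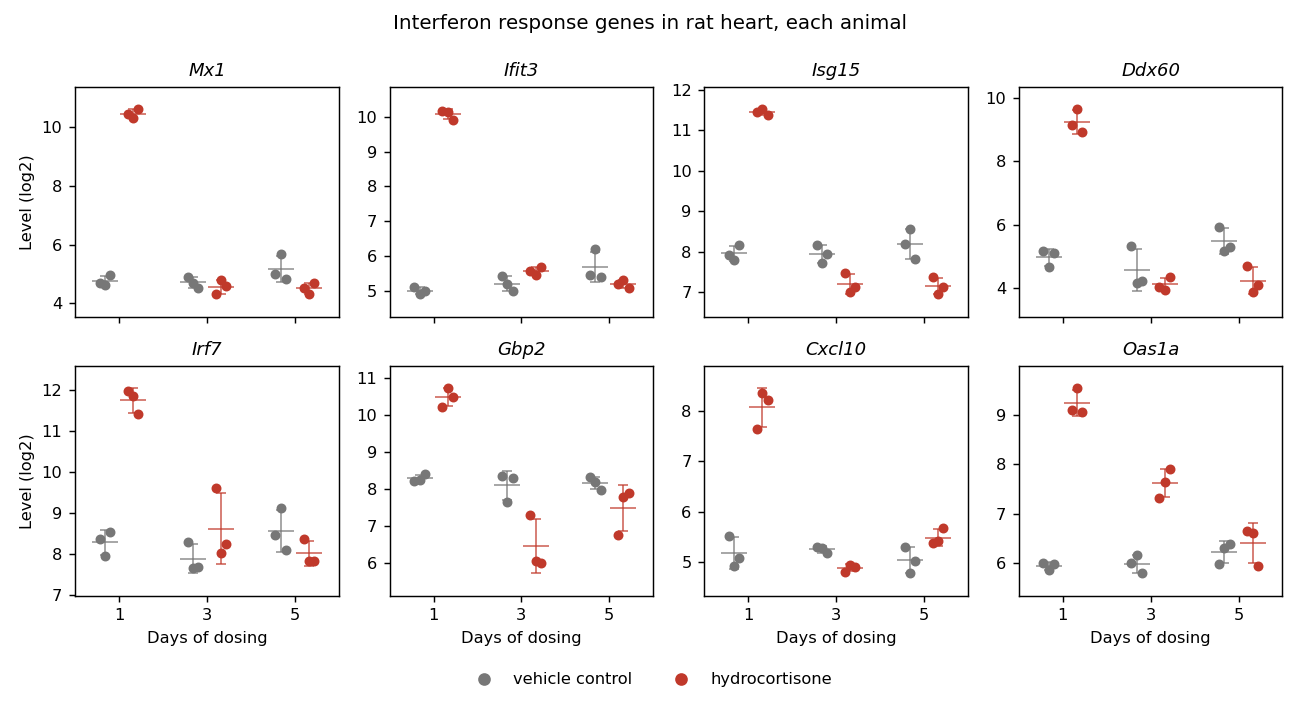
Levels (log2) of 8 genes in each rat after 1, 3 and 5 d of dosing, in vehicle controls (grey) and hydrocortisone rats (red), with the group mean and SD (n = 3). Mx1 sits between 10.32 and 10.62 in the rats dosed for 1 d and between 4.31 and 5.69 in all others, while Oas1a comes down in steps over 3 d and 5 d.

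The interferon response list as a whole had 43 measured genes. At 1 d 31 of them were higher than control and 0 lower, beside 143 of all 14217 genes (1.01%) higher, and the list's median change was 1.98 against -0.0021 for all genes. At 3 d 1 was higher and 6 were lower, with a median of -0.40, and at 5 d 0 were higher and 1 was lower, with a median of -0.20. By animal, the list's median level was 9.11 to 9.47 in the rats dosed for 1 d, 6.75 to 7.13 after 3 d and 6.96 to 7.10 after 5 d, against 7.24 to 7.54 over the 9 controls. The lowest treated rat at 1 d was above the highest of the 9 controls, and the highest treated rat at 3 d or 5 d was below the lowest of them. For scale, all 35 vehicle controls of the campaign at 1 d, whatever their vehicle, had list medians of 7.10 to 7.93 and Mx1 levels of 4.55 to 6.13. The 41 such controls at 3 d had list medians of 7.14 to 8.01 and Mx1 levels of 4.45 to 6.26. The 49 at 5 d had list medians of 6.97 to 7.91 and Mx1 levels of 4.05 to 6.71. Against these wider ranges the treated list medians stayed below at 3 d but overlapped at 5 d, and the treated Mx1 levels lay within the range at 5 d.

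Members that fell at 3 d were Gbp2 (-1.65), Bst2 (-1.51), a tether that holds viruses at the cell surface, Cxcl9 (-1.34), Psmb9 (-1.11), an immunoproteasome subunit, Irgm (-0.82) and Ifi35 (-0.61). Gbp2 shows the reversal in single animals: 10.24, 10.73 and 10.50 after 1 d, 7.30, 6.06 and 6.02 after 3 d and 6.78, 7.79 and 7.91 after 5 d, with controls between 7.66 and 8.40. Oas1a, an oligoadenylate synthetase that activates RNA decay, took a different course. It read 9.10, 9.54 and 9.06 at 1 d, 7.32, 7.65 and 7.90 at 3 d and 6.65, 6.61 and 5.94 at 5 d, with controls between 5.79 and 6.39, and it was the member still higher at 3 d (1.64 ± 0.19, adjusted p = 0.00024, n = 3 against 3, limma).

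Of the members that did not pass at 1 d, Ifit1 had the largest rise (2.37 ± 0.68, adjusted p = 0.067, limma, n = 3 against 3). Psmb9 (0.93), Tap2 (0.89), Ifi27 (0.82) and Psmb10 (0.69) came next. The others were Irf1 (0.51), Irf8 (0.18), Cxcl9 (0.19) and Cxcl11 (-1.21), along with B2m (0.34), Psme1 (0.19) and Psme2 (0.31). A further list of interferons, receptors and their signalling parts, added after the pattern had been seen, had 18 measured genes. Of these, Stat2 (1.78) and Irf9 (1.56) were higher at 1 d, beside 1.01% of all genes, and the rest did not pass. Ifnb1, the gene of interferon beta, lay between 4.23 and 4.73 on all 18 arrays and Ifng, that of interferon gamma, between 3.87 and 4.14, both near the low end of the array's range. Their changes at 1 d were 0.21 and 0.02. Ifnar1 and Ifnar2, the chains of the type I interferon receptor, changed by 0.12 and -0.16.

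The rise at 1 d was called in every setting tried. The number of list members higher at 1 d ran from 23 of 35 (when the dimmest genes were left out) to 35 of 43, and leaving out any 1 rat left between 28 and 33 of 43. Arrays of the same RNA extraction batch gave like values: within 2 such batches, each with 1 treated and 1 control rat at 1 d, Mx1 changed by 5.76 and 5.67 and the list median by 1.83 and 1.52. In the 1 batch with rats of both kinds at 3 d, the list median was -0.42, and in the 2 such batches at 5 d it was -0.23 and -0.36.

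The durations were also compared in pairs. These comparisons came from the same fit as the interaction test, so they give no separate support for it. The change at 5 d was lower than that at 1 d for 91 genes (0.64%) and higher for 0; at an unadjusted p under 0.05, 994 genes differed. The change at 3 d was lower than that at 1 d for 85 genes (0.598%) and higher for 2 (0.0141%). Between 5 d and 3 d, limma called 0 genes, as did the unmoderated linear model, with 1630 of 14217 genes at an unadjusted p under 0.05, and 7 genes were called when control 5 d replicate 1 was left out, 1 when hydrocortisone 3 d replicate 3 was left out, 1 with the controls of the same study alone and 3 with all vehicle controls of the campaign. That no gene passed does not show that the responses at 3 d and 5 d were the same.

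**Figure D2:**
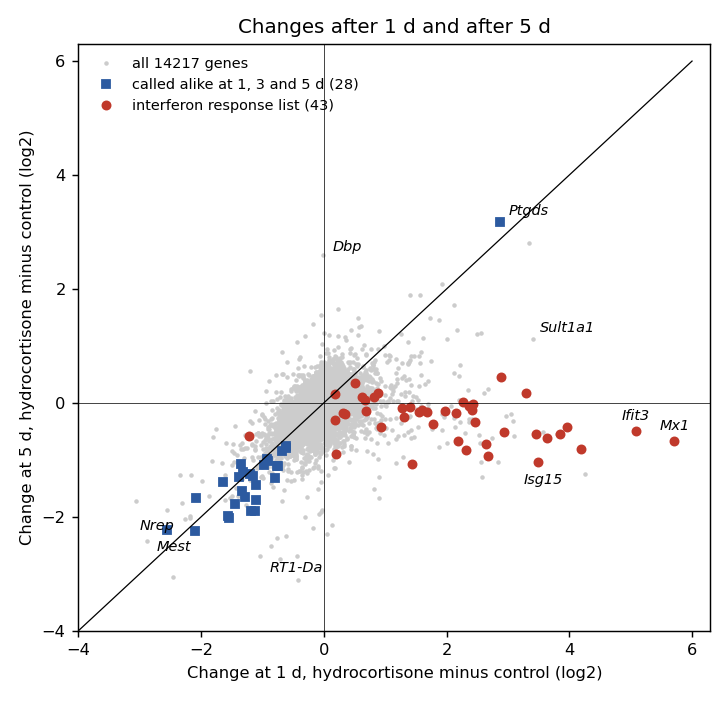
Change against vehicle control (log2) after 5 d plotted against that after 1 d for all 14217 genes (grey), the 43 measured interferon response genes (red) and the 28 genes called in the same direction at 1, 3 and 5 d (blue); the slanted line marks equal changes. Interferon genes spread along the horizontal axis up to 5.71 for Mx1, near or below 0 at 5 d, while Ptgds and Mest lie close to the line.

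The few interaction genes outside this pattern had other courses. Serpina3n, an acute-phase inhibitor of serine proteases, was at 8.84, 7.77 and 6.93 after 3 d of hydrocortisone against 4.43, 4.55 and 4.65 in controls. At 1 d it read 4.66, 4.78 and 4.96 and at 5 d 5.56, 5.37 and 4.80, with controls between 4.26 and 5.04. All 3 treated rats at 3 d stood above every other animal, and the change of 3.30 ± 0.33 (adjusted p = 6.4e-05, n = 3 against 3, limma) was 2.90 above that at 1 d (adjusted p = 0.0024); the test of this difference was lost with only the controls of the same study, without moderation of the variances, with the extraction batch as a block, with the fluocinolone acetonide rats in the fit, and without the 6 arrays high in atrial genes. The other gene with a higher change at 3 d than at 1 d was Clcn4, a chloride transporter, at 0.81 and -0.21, named after its values were seen.

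Gadd45g, a growth arrest gene, read 7.60, 7.75 and 7.55 in treated rats at 3 d against 9.70, 9.99 and 9.97 in controls, and 7.27, 6.94 and 8.14 against 9.65, 9.47 and 8.98 at 5 d. At 1 d, treated (7.80, 8.38, 8.03) and control (8.13, 7.99, 8.24) rats overlapped. The treated rats lay between 6.94 and 8.38 over the 3 durations, and the controls themselves read lower at 1 d, when hearts were taken in the afternoon, than at 3 d and 5 d. Against all vehicle controls of the campaign both calls were lost. The call of Hdac7 was of another kind: this histone deacetylase changed by -0.35 at 1 d, -0.60 at 3 d and 0.29 at 5 d, and its 3 d change passed the test.

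Other genes were called in the same direction at all 3 durations. These lasting calls were mostly decreases: 27 genes were lower and 1 was higher at 1, 3 and 5 d. The numbers behind them were 107 genes lower at 1 d (0.753%), 163 at 3 d (1.15%) and 67 at 5 d (0.471%), and 143, 56 (0.394%) and 5 (0.0352%) higher. Of the genes lower at 5 d, 30 were also lower at 1 d and 41 at 3 d. None of the 28 lasting genes was called by the interaction, which does not show that their changes were equal.

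Ptgds, the lipocalin-type synthase of prostaglandin D, was the gene higher throughout. Treated rats read 9.67, 9.78 and 9.82 at 1 d, 10.47, 9.63 and 10.80 at 3 d and 9.54, 10.04 and 10.93 at 5 d, and all 9 controls lay between 6.41 and 7.46. The groups did not overlap, and the changes were 2.87, 3.54 and 3.17 (SE 0.34 each), or 7.32-, 11.7- and 8.98-fold. Orm1, an acute-phase plasma protein, changed by 3.35 and 2.89 at 1 d and 3 d and by 2.81 at 5 d, where it missed the threshold (adjusted p = 0.012, limma, n = 3 against 3). Sult1a1, a sulfotransferase, changed by 3.40, 2.57 and 1.12 and passed at 1 d and 3 d; in its controls the level ran from 6.83 to 9.10, so that treated and control rats overlapped at 5 d.

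A part of the cell division genes was lower at every duration. Of 52 measured genes of mitosis and cell division, 11 were lower at 1 d, 15 at 3 d and 13 at 5 d, with 0 higher. Over all genes, 0.753%, 1.15% and 0.471% were lower. The interaction called 0 of the 52, beside 0.633% of all genes, and the list's medians were -0.35, -0.43 and -0.38. Cdk1, the kinase that drives entry into mitosis, read 5.51, 5.12 and 5.4 at 1 d, 4.70, 5.11 and 4.91 at 3 d and 5.4, 5.07 and 4.64 at 5 d, against 6.63 to 7.52 in the 9 controls, with no overlap. Its changes were -1.54, -2.14 and -2.01 (SE 0.22). Mki67, the proliferation marker, changed by -1.44, -1.51 and -1.77, Cks2, a partner of Cdk1, by -1.56, -1.97 and -1.99, and Prc1 and Racgap1, which act when dividing cells separate, by -1.29, -2.02 and -1.66 and by -1.34, -1.27 and -1.55. At 1 d the count was 6 without treated replicate 2 or control replicate 2 and 7 without treated replicate 1. With the 6 arrays high in atrial genes left out, 5, 2 and 1 members were called; with all vehicle controls of the campaign, 10, 7 and 0.

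Several connective tissue genes were lower, although few of the matrix and fibroblast list passed. Nrep, the gene with the largest decrease among those lower at 1 d (-2.88), read 7.94, 8.62 and 9.25 at 1 d and 8.57, 7.64 and 8.04 at 3 d against controls between 11.20 and 11.68. At 5 d it read 10.23, 7.55 and 8.98, so that replicate 1 of the 5 d group stood nearer the controls, and the change of -2.43 missed the threshold. Col15a1, a basement membrane collagen, showed the same animal apart: 10.96 in replicate 1 at 5 d against 8.44 and 9.26 in the other two, with controls between 11.30 and 11.67. Col6a6 (-2.09, -1.81 and -2.24), another collagen, Nid2 (-2.09, -2.11 and -1.66), a basement membrane linker, and Pxdn (-1.31, -1.51 and -1.22), which cross-links collagen, passed at all 3 durations. The Pxdn call was kept in 6, 8 and 3 of 9 alternative settings at 1, 3 and 5 d. That of Nid2 was kept in 9, 9 and 6 of 9, and that of Col6a6 in 8, 7 and 8 of 8. These tallies do not cover the fit without the 6 arrays high in atrial genes, nor those with any 1 rat left out. Mest, an imprinted gene of growing tissue, read 5.31, 4.80 and 4.87 at 1 d, 6.06, 5.11 and 4.48 at 3 d and 5.80, 5.88 and 5.21 at 5 d, below all controls (7.18 to 8.23), with changes of -2.56, -2.68 and -2.22 (SE 0.32). Its call was kept in 9, 9 and 6 of 9 settings at 1, 3 and 5 d. The 64 measured matrix and fibroblast genes had medians of -0.54, -0.43 and -0.52, with 3, 5 and 1 lower and 0 higher, beside 0.753%, 1.15% and 0.471% of all genes lower. These counts rested on single animals: without treated 5 d replicate 1 they were 12, 13 and 12, and without treated 3 d replicate 1 the 3 d count was 14. When any 1 of treated 3 d replicates 2 and 3 and control 3 d replicates 1 and 3 was left out it was 1, and without treated 1 d replicate 1 or 2 or control 1 d replicate 2 or 3 the 1 d count was 0. Without control 1 d replicate 1 the 1 d count was 1, and it was 8, 6 and 5 without treated 3 d replicate 1, treated 3 d replicate 3 or treated 5 d replicate 3. Without the 6 arrays high in atrial genes the counts were 1, 0 and 0, and with all vehicle controls of the campaign 20, 20 and 12.

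Lists of other cell types held a few calls, mostly at 1 d and 3 d. Over all genes, 1.01%, 0.394% and 0.0352% were higher and 0.753%, 1.15% and 0.471% lower at 1, 3 and 5 d. At these shares a list of this size can hold 0 or 1 call. Of 30 endothelial genes, 3 were lower and 2 higher at 1 d, 7 were lower and 0 higher at 3 d, and 0 passed at 5 d; Aplnr, the apelin receptor, changed by -2.35, -2.46 and -1.26 and passed at 1 d and 3 d. Of 23 macrophage genes, 5 were higher at 1 d, among them Cd163, a scavenger receptor (1.74), and C1qb, a complement subunit (1.48); 1 was higher at 3 d and 0 at 5 d. Of 40 lymphocyte genes, 0 passed at 1 d, 5 were lower at 3 d and 0 passed at 5 d. Without the 6 arrays high in atrial genes, 3 endothelial genes were lower and 0 higher at 1 d, 2 macrophage genes were higher at 1 d, and 0 members of the 3 lists passed at 3 d or 5 d. Leaving out 1 rat of the same duration took the endothelial count at 3 d to 1 or 2 (treated replicates 2 and 3, control replicates 1 and 3), the macrophage count at 1 d to between 1 and 3 (any of the 6 rats), and the lymphocyte count at 3 d to 1 or 2 (any but control replicate 2). The lymphocyte count was also 3 when any 1 d rat or control 5 d replicate 3 was left out. For the endothelial genes at 1 d, 0 were higher without treated replicate 1 or 2 or control replicate 1 or 3, and 1 was lower without treated replicate 1. Ptprc, the common leukocyte antigen, did not pass at any duration (-0.83, -0.95 and -0.75). It lay between 6.04 and 6.67 in the 9 treated rats and between 6.65 and 7.83 in the 9 controls, and at each duration every treated rat was below its own controls.

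Some MHC class II genes, which present antigen to helper T cells, were lower at 3 d and 5 d. RT1-Da, RT1-Db1 and RT1-Ba, chains of rat MHC class II, changed by -1.04, -0.86 and -0.77 at 1 d without passing the test. At 3 d they changed by -2.62, -2.52 and -2.55 and at 5 d by -2.69, -2.50 and -2.38, all past the test. RT1-Da read 7.82, 8.80 and 9.31 at 1 d (controls 9.58, 9.94 and 9.52), 6.95, 7.44 and 7.39 at 3 d (controls 9.89, 9.50 and 10.25) and 8.80, 6.77 and 7.09 at 5 d (controls 10.54, 9.97 and 10.22). No treated rat overlapped its controls at any duration, and replicate 1 at 5 d again stood nearest to them. The difference between durations did not pass: 5 d minus 1 d was -1.65 ± 0.59 for RT1-Da (adjusted p = 0.50). Of the 9 measured class II genes 4 were lower at 3 d and 3 at 5 d, beside 1.15% and 0.471% of all genes. The list medians were -0.25, -1.04 and -0.54 at 1, 3 and 5 d. Cd74, the invariant chain, changed by -0.07, -0.20 and -0.15. Without treated 3 d replicate 2, control 3 d replicate 1 or control 3 d replicate 3, 2 passed at 3 d. With all vehicle controls of the campaign, 3 passed at 1 d as well (4 at 3 d and 3 at 5 d), and without the 6 arrays high in atrial genes, 0 of the 9 passed at any duration.

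**Figure D3:**
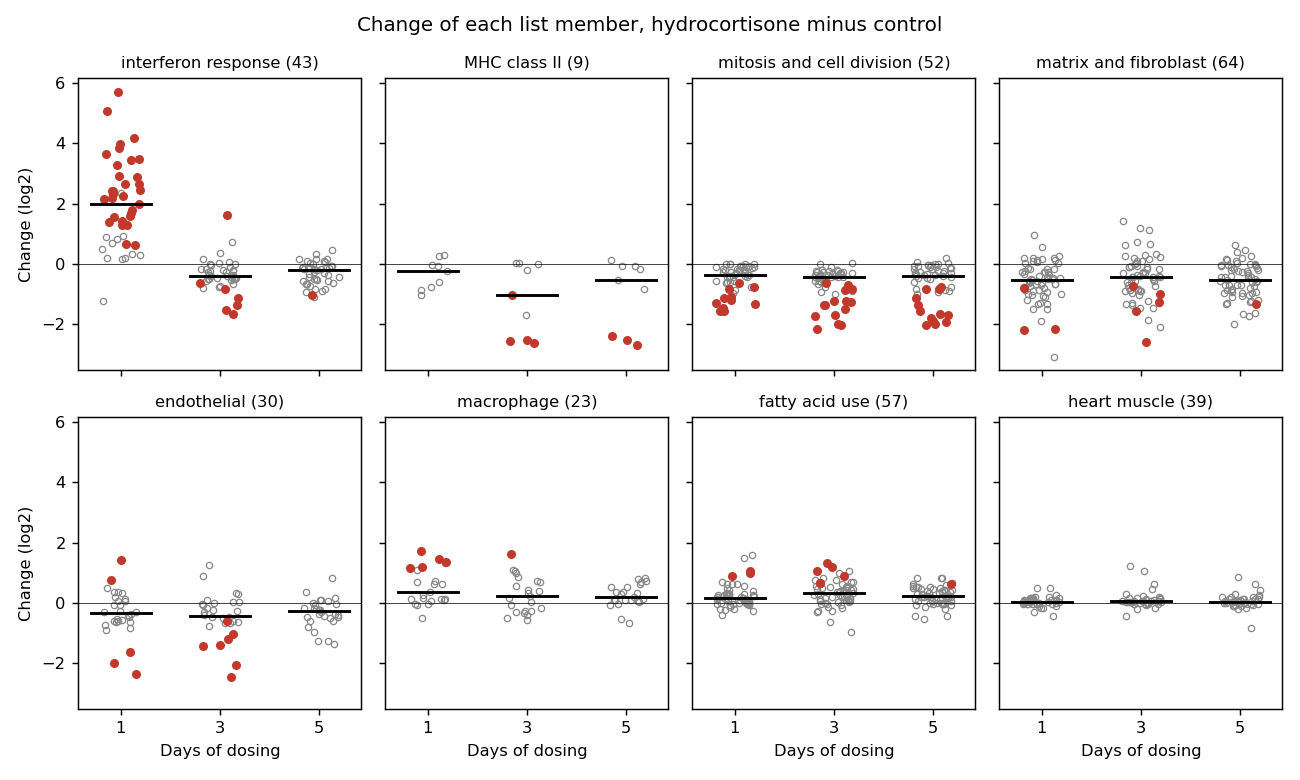
Change against vehicle control (log2) of every measured member of 8 gene lists after 1, 3 and 5 d; filled red points passed the test, open grey points did not, and the bar is the list median. The interferon list's median is 1.98 at 1 d and below 0 later, 4 of 9 class II genes passed at 3 d and 3 at 5 d, and the heart muscle median stays near 0.

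Against the matched controls, classical receptor targets passed the test in both directions. Of 42 measured glucocorticoid target genes, 3 were higher and 0 lower at 1 d, 2 higher and 1 lower at 3 d, and 1 higher and 2 lower at 5 d. The list medians were 0.18, 0.18 and -0.04. Over all genes, 1.01%, 0.394% and 0.0352% were higher and 0.753%, 1.15% and 0.471% lower. With all vehicle controls of the campaign, 3, 4 and 1 targets were higher at 1, 3 and 5 d and 0 were lower. Fkbp5, a co-chaperone of the receptor and a standard target, read 10.18, 10.38 and 9.24 at 1 d against 7.05, 7.77 and 7.29 in controls, a change of 2.56 ± 0.53. Its changes of 2.02 at 3 d and 1.23 at 5 d did not pass, and its controls varied from 7.05 to 10.03. Nr3c1, the receptor itself, changed by -0.33, -0.17 and -0.41, none past the test. Of 57 genes of fatty acid use 3, 6 and 1 were higher and 0 lower, read against the same shares of all genes, including Gpd1 (0.99, 1.34 and 0.84) and Pnpla2 (1.07, 1.2 and 0.84), a lipase of stored fat; the gene past the test at 5 d was Cpt2 (0.62), the mitochondrial carnitine palmitoyltransferase. These counts were 1, 0 and 0 without the 6 arrays high in atrial genes, and the 3 d count was 2, 2 and 3 without treated 3 d replicate 2, control 3 d replicate 1 or control 3 d replicate 3. The 5 d count was 4 without treated 5 d replicate 1 and 0 when any 1 of treated 5 d replicates 2 and 3 and control 5 d replicates 2 and 3 was left out; it was 2 without treated 1 d replicate 2 or control 3 d replicate 2.

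Of the clock genes, 1 of 4 activators (Bmal1) was lower and 1 of 4 outputs (Dbp) higher at 5 d, and 0 of 9 repressors passed. Over all genes, 0.471% were lower and 0.0352% higher at 5 d. Dbp, a transcription factor under direct control of the clock, read 10.29, 9.60 and 10.06 in treated rats at 5 d against 6.91, 7.65 and 7.60 in controls. Bmal1, the clock activator that peaks in antiphase to Dbp, read 5.86, 6.72 and 5.77 against 8.45, 8.20 and 7.71. Neither gene overlapped between groups at 5 d, and the changes of 2.60 ± 0.37 (adjusted p = 0.0015) and -2.0 ± 0.32 (adjusted p = 0.0036) both passed (limma, n = 3 against 3). At 1 d, treated rats (Dbp 9.60, 9.85 and 9.93) overlapped controls (10.58, 9.93 and 8.89), and at 3 d Dbp was at 8.55, 8.60 and 7.36 against 7.10, 7.70 and 7.11. The levels of both genes in the treated rats at 5 d, taken in the morning, were close to those of rats taken in the afternoon at 1 d. The difference of changes, 5 d minus 1 d, was 2.61 ± 0.53 for Dbp (adjusted p = 0.019) and -1.70 ± 0.46 for Bmal1 (adjusted p = 0.16), so neither passed. Dbp also varied widely among the 49 vehicle controls of the campaign at 5 d, from 6.34 to 10.31 with a median of 7.10, and against all of them the Dbp and Bmal1 calls were lost. Over the 9 settings the Dbp call was kept in 7 and the Bmal1 call in 5. These 9 do not include the fit without the 6 arrays high in atrial genes, which leaves 1 control at 5 d. The Bmal1 call was also lost when treated 5 d replicate 1 or 3, or control 5 d replicate 1 or 2, was left out. The remaining genes higher at 5 d were Tmem108 (1.89) and Ephx1, an epoxide hydrolase (1.28). Errfi1, a brake on the EGF receptor, was lower at 5 d (-2.15 ± 0.36), with treated rats at 7.60, 7.56 and 7.40 and controls at 9.46, 10.23 and 9.32, and its controls too were lower at 1 d (7.93, 7.87 and 8.83).

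**Figure D4:**
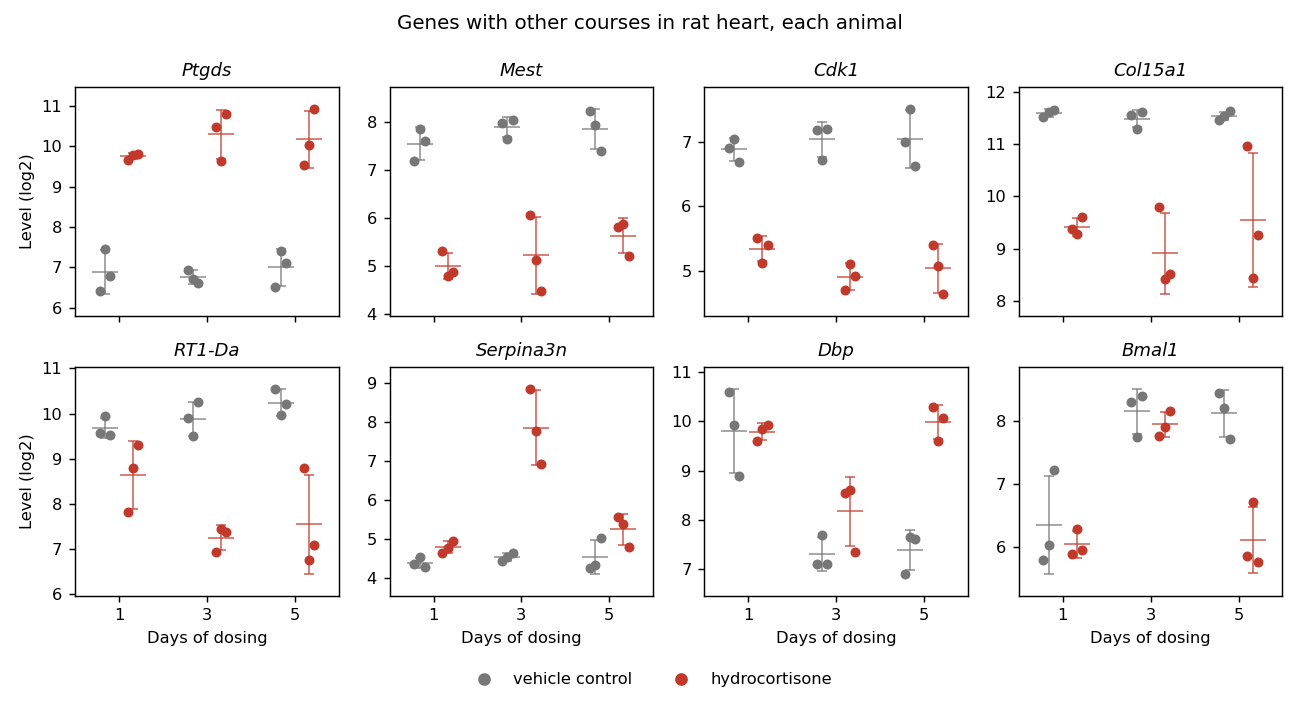
Levels (log2) of 8 further genes in each rat after 1, 3 and 5 d, in vehicle controls (grey) and hydrocortisone rats (red), with the group mean and SD (n = 3). Ptgds, Mest, Cdk1 and Col15a1 are apart from controls at every duration, Serpina3n at 3 d, and Dbp and Bmal1 at 5 d.

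The counts at single durations rested on few animals. At 1 d, 250 genes were called in all, and 155, 156 and 166 when control replicate 2, treated replicate 1 or control replicate 3 was left out. At 3 d, 219 were called, and 54, 57, 70 and 86 without control replicate 1, treated replicate 2, control replicate 3 or treated replicate 3. At 5 d, 72 were called, and 27, 28, 35 and 35 without control replicate 2, treated replicate 2, treated replicate 3 or control replicate 3; the count was 125 without treated replicate 1, the animal nearest the controls, and 115 without control 3 d replicate 2. Without the 6 arrays high in atrial genes, 131, 13 and 6 genes were called at 1, 3 and 5 d. The interaction count moved less, between 76 and 109 when any 1 rat was left out.

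Other corticosteroids in the series were read for the same interferon genes, after the pattern had been seen. Their doses, vehicles and routes differ from those of hydrocortisone, so values are given side by side with no comparison. Fluocinolone acetonide, a fluorinated synthetic glucocorticoid at 2.5 mg/kg in corn oil by the subcutaneous route, shared its 9 controls with hydrocortisone. None of these controls came from its own in-life study, so study and treatment cannot be told apart for it. Its rats read 7.52, 9.45 and 10.16 for Mx1 at 1 d, and 24 of the 43 list members were higher, beside 1.27% of all genes; the list medians were 1.52, -0.29 and -0.06 at 1, 3 and 5 d. Its rats read 4.37, 4.69 and 5.78 for Mx1 at 3 d and 4.69, 4.92 and 7.60 at 5 d, and at each of these durations 1 rat stood above all its controls. Ptgds changed by 3.69, 3.09 and 2.95, Mest by -2.32, -3.12 and -2.26, RT1-Da by -1.88, -3.57 and -3.41 and Dbp by -1.57, -0.30 and -0.83 with this compound.

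The remaining steroids were given by oral gavage and were set against gavage controls pooled from several in-life studies. At 1 d, none of these controls came from the studies of prednisone, prednisolone or fludrocortisone acetate. Study and treatment therefore cannot be told apart for them. Most of the cortisone controls also came from other studies. Prednisone (68 mg/kg) at 1 d gave Mx1 levels of 10.14, 10.43 and 11.22, with 36 of 43 members higher beside 1.16% of all genes. Prednisolone (184 mg/kg) gave 8.66, 11.13 and 11.55, with 33 of 43 higher beside 0.893%. Fludrocortisone acetate (125 mg/kg) gave 5.22, 11.41 and 11.41: 1 of the 3 rats was at the level of the controls, the list median change was 1.72, and 0 of 43 members passed beside 0.00703% of all genes. Cortisone (206 mg/kg) gave 4.50, 4.78 and 4.85, and 0 of 43 passed beside 0% of all genes, with a list median of -0.30. Their 9 controls each at 1 d (prednisone, fludrocortisone acetate and cortisone share theirs) lay between 4.55 and 6.13. At 3 d and 5 d, fludrocortisone acetate rats read 4.99 to 5.67 for Mx1. Dexamethasone (1 mg/kg), which had arrays at 3 d and 5 d, had 21 and 16 of the 43 members lower, beside 3.81% and 2.58% of all genes. It had 2 and 0 members higher, beside 432 and 182 of all 14217 genes.

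**Figure D5:**
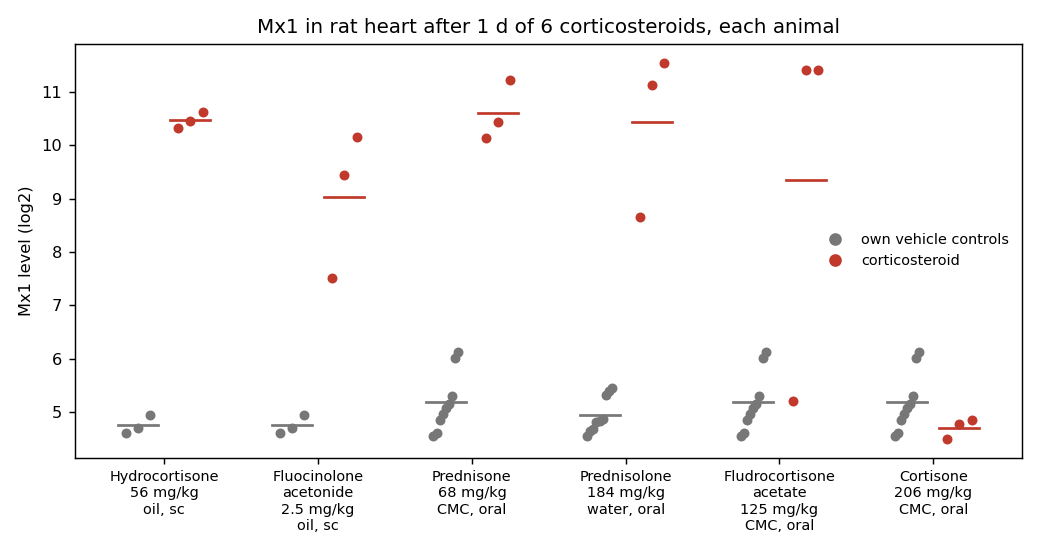
Mx1 level (log2) in the heart of each rat after 1 d of 6 corticosteroids (red) and in the vehicle controls of each (grey), with group means as bars; doses, vehicles and routes differ and are printed under each name. Hydrocortisone rats sit between 10.32 and 10.62, while fludrocortisone acetate has 1 rat at 5.22 and cortisone rats stay between 4.50 and 4.85.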

How the data were processed

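Heart RNA was hybridised to Affymetrix rat arrays, 1 per animal. The deposited values are log2 levels per probe set; the processing notes of the authors name RMA without a version. The table held 31099 probe sets. The 57 probe sets of the manufacturer's controls were dropped; 20826 others had 1 gene symbol, 436 several and 9780 none, and the probe set of highest mean stood for each of 14217 genes. A linear model with 6 group means over 18 animals was fitted with limma 3.58.1 in R 4.3.3 (lmFit, eBayes), with Benjamini-Hochberg adjustment over all genes, an adjusted p of at most 0.01 and at least 1.5-fold; the interaction was a joint F-test. The fit was tested on simulated data. 167 array columns were read and 695 were not used. Group labels gave no litter or pairing, and p-values measure the spread between animals. Named genes were up to 15 interaction genes each way by their largest difference between durations, up to 10 each way at each duration, up to 10 each way of the lasting calls, and list members. Genes and lists were chosen with earlier results of these data known. Alternatives were other controls (the same study's alone, or all 125 vehicle controls of the campaign), the same linear model without moderation of the variances, other probe set rules, a filter on dim genes, a new quantile normalization, batch blocks, fluocinolone acetonide rats in the fit, and leaving out arrays. Promoter sequences are from RefSeq on GRCr8.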

Additional observations from a re-analysis of the deposited data

Results flagged for a closer look

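These results were picked out because the effect of hydrocortisone differed between durations by a test of the difference itself. Interaction calls numbered 90 genes; the change differed between 5 d and 1 d for 91 genes and between 3 d and 1 d for 87 genes. The named genes were those with the largest difference between the changes of any 2 durations, and their change at 5 d minus that at 1 d is given for each on the log2 scale: Mx1 (-6.38), Ifit3 (-5.58), Ddx60 (-5.50), Mx2 (-5.0), Isg15 (-4.53), Usp18 (-4.39), Gbp4 (-4.39), Slfn4 (-4.34), Ifi44l (-4.26), Herc6 (-4.09), Irf7 (-4.02), Rtp4 (-3.89), Rig1 (-3.87), Ifgga2l1 (-3.67) and Gbp2 (-2.87). The genes of the other direction were Serpina3n (0.30), whose largest difference was between 3 d and 1 d, and Hdac7 (0.64). The hour at which hearts were taken, afternoon at 1 d and morning later, went with the duration and cannot be told apart from it, though each change was taken against controls of the same hour.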

How the results depend on the processing

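The interaction count of 90 genes stayed within 1.5 times under the alternatives tried, other than all vehicle controls of the campaign (152 genes, 86 of the 90 among them) and the 6 arrays high in atrial genes left out (56 genes). With those controls, 522, 521 and 158 genes were called at 1, 3 and 5 d, 3 differed between 5 d and 3 d and 143 between 3 d and 1 d. With the controls of the same study alone, the counts were 143, 44 and 40, and 1 gene differed between 5 d and 3 d. The same linear model without moderation of the variances called 147, 76 and 23. The upper 60% of genes gave 46 at 5 d. The extraction batch as a block gave 126 at 3 d and 39 at 5 d. With fluocinolone acetonide rats in the fit, 44 genes differed between 3 d and 1 d. Without the 6 arrays high in atrial genes, a setting chosen after seeing the data, 131, 13 and 6 genes were called at the 3 durations, 56 by the interaction, 48 between 5 d and 1 d and 48 between 3 d and 1 d. Leaving out 1 animal at a time gave 76 to 109 interaction genes, 155 to 275 at 1 d, 54 to 273 at 3 d, 27 to 125 at 5 d, 76 to 101 between 5 d and 1 d, 0 to 7 between 5 d and 3 d and 74 to 92 between 3 d and 1 d. No setting turned the direction of a called named gene: of 3582 such values 3137 kept the call and 445 lost it. No paired analysis was possible because replicate numbers were given in order of deposit and the labels pair no animals. Limits: 3 animals a group set the precision, genes near the low end of the array's range are measured with compressed changes, and 9780 probe sets had no symbol and were not tested.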

Other observations

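Several gene lists held no member that passed the test at any duration: heart muscle (39 genes measured), oxidative phosphorylation (57), proteasome (32), heat shock (23), the unfolded protein response (24), red blood cells (19), liver (23) and fast skeletal muscle (18). Over all genes, 1.01%, 0.394% and 0.0352% were higher and 0.753%, 1.15% and 0.471% lower at 1, 3 and 5 d. At these shares such lists can hold 0 calls, so the absence of calls does not show that their genes were unchanged. The liver list had a median change of 0.45 at 1 d, where its median level lay between 5.07 and 5.18 in controls and between 5.10 and 6.17 in treated rats. Among 26 immediate early genes, Jun (-1.75) and Ier5 (-0.98) were lower at 3 d, beside 1.15% of all genes. That count was 12 without control 3 d replicate 2 and 5 without control 5 d replicate 1. It was 0 or 1 when any 1 of 14 other rats was left out. Without the 6 arrays high in atrial genes, or with all vehicle controls of the campaign, it was 0. The list's medians were -0.38, -1.17 and -0.59 at 1, 3 and 5 d.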
